A study of Mus musculus with 4 samples.

Results

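Isl1 peaks were examined at 39 genes for enzymes and inhibitors of extracellular matrix remodelling, taken from 21887 protein-coding mouse genes: 19 Adamts proteases, 5 Adamts-like genes (Adamtsl), 11 matrix metalloproteinases (Mmp) and 4 tissue inhibitors of metalloproteinases (Timp). The genes were chosen by name, and a peak was counted at a gene when its midpoint lay inside the gene or within 100 kb of it. The study mapped where Isl1, a LIM-homeodomain transcription factor, is bound in chromatin of the embryonic genital tubercle, the outgrowth that forms the penis or clitoris. Chromatin immunoprecipitation followed by sequencing (ChIP-seq) was done with a rabbit monoclonal anti-ISL1 antibody on tubercles of wildtype CD1 embryos at E14.5 (counted in embryonic days), in 2 Isl1 ChIP replicates. The series also holds 2 input DNA samples of the same strain, genotype, tissue and age, prepared with no antibody; peak lists of these were not used here. All values below are therefore of the ChIP samples, and none is set against an input value. The labels do not say whether the replicates came from separate litters, nor the sex of the embryos.

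The matrix between mesenchymal cells is made of collagens, fibrillin microfibrils and large proteoglycans such as versican and aggrecan, and it is cut and rebuilt as an outgrowth lengthens. Mmp enzymes are zinc proteases that cut collagens and other matrix proteins, Adamts enzymes are secreted zinc proteases that bind the matrix through thrombospondin repeats, and Timp proteins inhibit Mmp enzymes and, in the case of Timp3, some Adamts enzymes too. Adamtsl proteins resemble the thrombospondin-rich part of Adamts enzymes but lack the protease domain.

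Replicate 1 held 8860 peaks and replicate 2 held 10162, and 6834 shared regions joined overlapping peaks of both (at least 1 bp in common). Each peak carried a whole-number score from the authors, with a median of 90 in replicate 1 and 96 in replicate 2 and a minimum of 20 in both lists. Neither list gives read totals, and library depth is unknown. Because nothing states that scores are comparable between libraries, each score is also given as a percentile, the percentage of peaks of its own list that score the same or less, and a region is ranked by the lower of its 2 percentiles. Sites weaker than the authors' threshold are missing from the lists, and absence of a peak is no evidence of absence of Isl1.

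Of the 39 genes, 20 (51.3%, Wilson 95% interval 36.2 to 66.1%) had at least 1 shared region inside them or within 100 kb, where 38.1% of all protein-coding genes did. The interval covers counting error only and takes in the value of all genes. Long genes collect more regions, and all genes weighted to the length classes of the listed ones gave 43.7%. The peaks of a single list stood further from all genes: 71.8% of members (56.2 to 83.5%) had a peak in replicate 1 and 69.2% (53.6 to 81.4%) in replicate 2, against 44.5% and 45.5% of all genes, or 50.7% and 51.9% weighted to the same length classes. Those intervals lay above the values of all genes, whereas the interval for shared regions did not. All of these intervals treat genes as independent. Neighbouring members were counted through the same peaks, Adamts1 with Adamts5 and Adamts8 with Adamts15, so the intervals can be too narrow. The difference was not tested, and the list was chosen with earlier results of these data known. Among the 13 listed genes over 100 kb long, 8 had a region (58.6% of all genes of that class), among the 13 of 20 to 100 kb, 5 did (39.5%), and among the 13 under 20 kb, 7 did (33.0%). The listed genes held 51 distinct shared regions, 2 of which lay in the windows of a pair of neighbouring members, Adamts8 and Adamts15, so that 53 pairs of gene and region were counted. That is a mean of 1.36 regions per listed gene, against 0.660 per gene over all genes, with medians of 1 per listed gene and 0 over all genes. These means and medians were not weighted by gene length, so they do not show an excess apart from length. Adamtsl1, Adamts20, Adamts17 and Timp2, with 12, 6, 5 and 4 regions, held 27 of the 53 pairs.

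**Figure D1:**
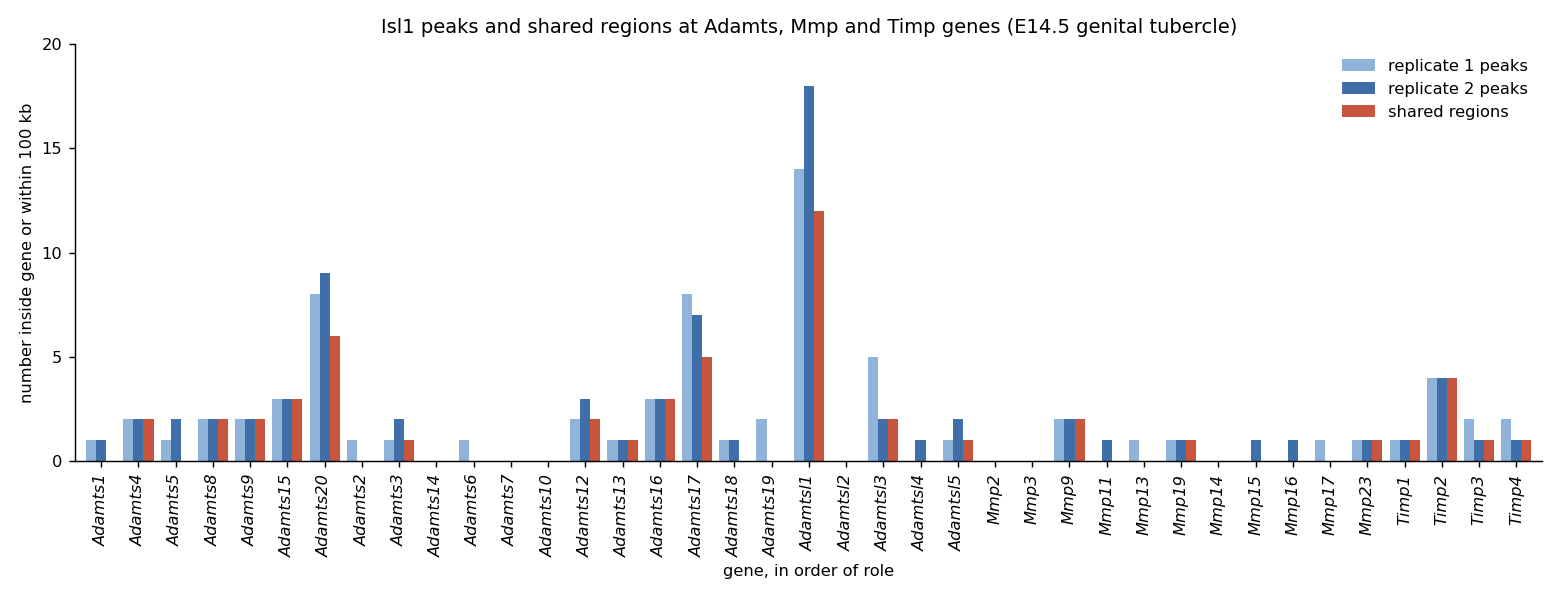
Number of Isl1 peaks in replicate 1, peaks in replicate 2 and shared regions (bars) inside each of the 39 genes or within 100 kb, in order of role. Adamtsl1 stands highest with 14 peaks, 18 peaks and 12 shared regions, and 7 genes have no bar at all.

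Regions inside a member were found at Adamts and Adamtsl genes, which include most of the long genes of the list. The 24 Adamts and Adamtsl genes held 40 distinct regions, 17 of them inside a member, and 13 of these genes had at least 1. Of the 11 Mmp genes 3 had a region, 4 regions in all, and each of the 4 Timp genes had at least 1, 7 in all and none of these 11 lay inside an Mmp or Timp gene. Of these 15 genes 9 were under 20 kb long and 1 over 100 kb, against 4 and 12 of the 24 Adamts and Adamtsl genes. All genes of the same length classes would give 0.988 Mmp and Timp genes with a region inside, so a count of 0 shows no difference, and 5.45 Adamts and Adamtsl genes, where 7 were counted. When a region was instead given to the gene it lay in, or else to the nearest one, 9 of 39 members had a region (14.1% of all genes did): Adamts3, Adamts8, Adamts9, Adamts12, Adamts15, Adamts16, Adamts17, Adamts20 and Adamtsl1. No Mmp and no Timp gene was among them. The family difference was not tested. Within the 100 kb limit 38.1% of all genes of any length had a region. The counts by role below are of few genes and were not tested either.

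No member with a tabled start site had an Isl1 peak on its own promoter window, here the stretch from 250 bases before to 50 bases after an annotated start site. The RefSeq promoter table (GRCm38.p6, the coordinates of mm10) held 24 of the 39 genes, and 0 of those 24 had a shared region, or a peak of either list, overlapping such a window, where 4.29% of the tabled protein-coding genes had a shared region there. For shared regions alone, within 5 kb of a start site, the counts were 0 of 24 members and 6.33% of tabled genes. Of 24 genes these shares make 1.03 and 1.52 genes, so the list is too short for a count of 0 to show a difference. Peaks of a single list did lie within 5 kb of a start site. They were at Adamtsl4 (0.237 kb), Adamtsl3 (2.75 kb), Adamts1 (4.13 kb upstream) and Mmp15 (4.775 kb upstream). Among these 24 genes the shared region closest to a member's own start site was 8.21 kb upstream of Adamts17, and the next was 22.2 kb into Adamts9.

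In all, 9 of the 51 regions (17.6%, Wilson 95% interval 9.57 to 30.2%) overlapped the promoter window of another gene, where 10.7% of all shared regions overlapped one. Of all 6834 shared regions, 1765 were within 100 kb of no protein-coding gene, so these shares are not like for like. The 9 regions lay at Ppox (2 regions), Surf6, Zfp335os, Slc12a5, Tmem198b, Usp36, Ice1 and Syn1. Their lower percentiles had a median of 86.9, which was close to the median of 83.3 over all 734 shared regions on promoter windows. Regions inside members had a median of 36.9 (n = 17) and those elsewhere in the windows one of 31.5 (n = 25), against 47.1 over all shared regions off promoter windows. The low median inside members rests on Adamtsl1, which held 10 of the 17, with lower percentiles from 2.81 to 88.6. The other 7 had 93.8 and 57.8 (Adamts9), 88.9 (Adamts17), 77.3 (Adamts15), 67.3 (Adamts16), 25.2 (Adamts20) and 0.77 (Adamts12). The strongest regions of the Mmp9, Mmp19, Timp1, Timp2, Adamts4 and Adamts13 windows were among those on promoter windows of other genes. The sequences under these regions that precede the start site are shown because they are the part for which bases were at hand: all 8 stretches of at least 50 bases, leaving out the weaker Ppox region, which covers 42. They are written 5′ to 3′ on the strand of the named gene, and capitals mark letters of the searched motifs TAAT and TAATTA (homeodomain), CTAATG and CTAATT (Isl1-type), TGANTCA (AP-1), GGGCGG (GC box), CCAAT and TATAAA on either strand.
Tmem198b, minus strand, chr10:128804454-128804697: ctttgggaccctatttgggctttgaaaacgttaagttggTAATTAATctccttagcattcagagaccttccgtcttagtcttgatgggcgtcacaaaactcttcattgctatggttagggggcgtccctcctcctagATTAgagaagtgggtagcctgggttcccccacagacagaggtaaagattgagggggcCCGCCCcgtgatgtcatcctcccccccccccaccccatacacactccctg
Slc12a5, plus strand, chr2:164960643-164960845: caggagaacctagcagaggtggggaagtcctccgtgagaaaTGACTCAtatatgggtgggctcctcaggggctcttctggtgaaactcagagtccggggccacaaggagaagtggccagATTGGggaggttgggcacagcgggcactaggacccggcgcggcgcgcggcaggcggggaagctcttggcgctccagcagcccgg
Zfp335os, plus strand, chr2:164911183-164911432: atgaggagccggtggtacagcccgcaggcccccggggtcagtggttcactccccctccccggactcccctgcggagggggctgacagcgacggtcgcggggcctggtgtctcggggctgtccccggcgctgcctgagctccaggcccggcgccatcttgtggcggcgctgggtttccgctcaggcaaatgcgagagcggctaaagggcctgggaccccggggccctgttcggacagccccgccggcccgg
Syn1, minus strand, chrX:20920919-20921118: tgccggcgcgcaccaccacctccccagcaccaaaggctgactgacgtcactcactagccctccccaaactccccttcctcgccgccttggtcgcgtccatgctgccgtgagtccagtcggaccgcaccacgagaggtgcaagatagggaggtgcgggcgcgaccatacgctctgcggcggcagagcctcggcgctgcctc
Ppox, minus strand, chr1:171281286-171281436: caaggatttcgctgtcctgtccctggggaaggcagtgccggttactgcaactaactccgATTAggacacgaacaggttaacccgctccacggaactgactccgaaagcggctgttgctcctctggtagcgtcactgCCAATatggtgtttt
Surf6, minus strand, chr2:26902954-26903118: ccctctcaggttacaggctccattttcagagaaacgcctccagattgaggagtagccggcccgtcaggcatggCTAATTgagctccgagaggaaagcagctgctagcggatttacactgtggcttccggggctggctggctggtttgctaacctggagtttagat
Usp36, minus strand, chr11:118290245-118290300: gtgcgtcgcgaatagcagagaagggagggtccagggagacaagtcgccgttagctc
Ice1, minus strand, chr13:70637791-70637884: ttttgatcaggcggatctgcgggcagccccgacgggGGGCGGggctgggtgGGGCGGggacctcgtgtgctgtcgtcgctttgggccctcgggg

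The Tmem198b stretch held the letters TAATTA 211 bases before the start site, a match that also contains TAAT on both strands, and a GC box match 56 bases before it. TAATTA occurs in the 250 bases before the start in 4.84% of all 32851 tabled windows and TAAT in 54.9%. The Surf6 stretch held CTAATT, which contains TAAT, 158 bases before the start (7.48% of windows). An AP-1 match, the letters through which many Mmp promoters are known to respond to Fos and Jun factors, stood 162 bases before the start of Slc12a5 (6.75%), and a CCAAT match 84 bases before it (33.9%). The Ppox stretch held TAAT letters and a CCAAT match, the Ice1 stretch held GC box letters 214 and 199 bases before the start (32.7% of windows), and the Zfp335os, Syn1 and Usp36 stretches held none of the motifs marked by capitals. CTAATG (6.36% of windows) and TATAAA (12.4%) were in none of the 8 stretches. All these shares are of whole windows of 250 bases. The stretches were 56 to 250 bases long, so presence or absence in a shorter one is not like for like. A match is a description of letters and not a binding site.

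The promoter windows of the members themselves, 25 for 24 genes, were rich in G and C, with a median of 63.6% over the 250 bases before the start, against 55.6% over 21263 windows of protein-coding genes. TAAT was present in 7 of 25 (28.0%), against 49.4% of protein-coding windows, and the GC box in 17 of 25 (68.0%), against 42.6%. AP-1 letters were in 2 of the 25 (8%, against 6.13%), CTAATG and CTAATT in 1 each (4%, against 5.69% and 6.69%) and TAATTA in 0 (against 4.31%). The part of base composition in these shares was not tested. E-box letters (CANNTG), which are not in capitals above, were in 18 of 25 windows (72.0%, against 62.8%), CCAAT in 5 (20.0%, against 35.4%) and TATAAA in 4 (16%, against 11.6%).

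Scores of the 51 regions ran between 20 and 1062 in replicate 1 (median 102, against 107 over all shared regions) and between 32 and 728 in replicate 2 (median 111, against 127). The Spearman correlation between the scores was 0.738 over the 51 regions and 0.717 over all 6834. Regions are not independent replicates and share their libraries. The percentile of a region differed between replicates by a median of 11.4 points (quartiles 5.15 and 26.1), against 11.9 over all regions, and smaller differences in rank between regions are within that spread. The median lower percentile was 42.7 (quartiles 13.5 and 69.2), against 50.1 over all shared regions (24.4 and 75.7).

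**Figure D2:**
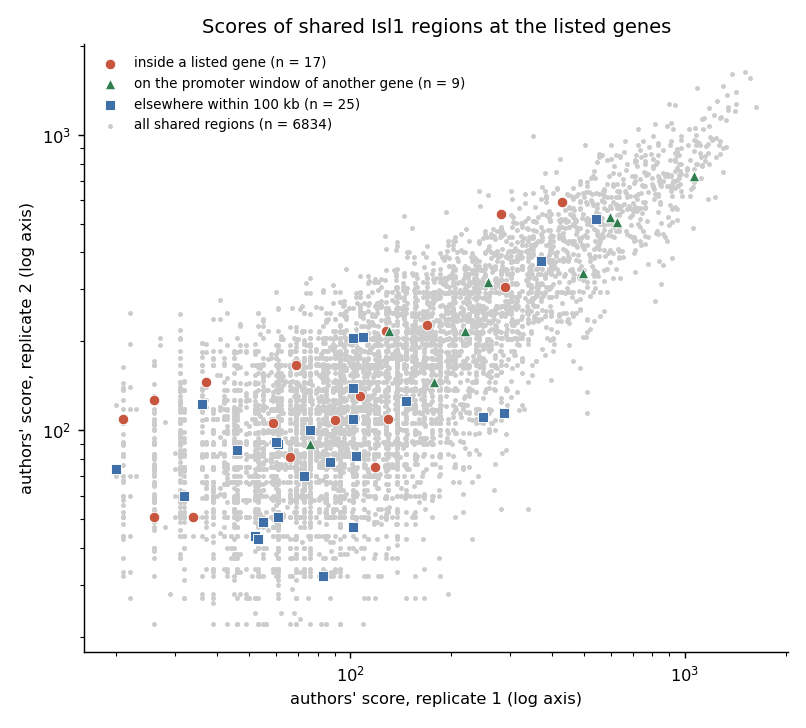
Authors' score in replicate 1 against replicate 2 (log axes) for the 17 shared regions inside a listed gene, the 9 on the promoter window of another gene and the 25 elsewhere within 100 kb, over all 6834 shared regions in grey. The regions on promoter windows include the highest scores of the listed genes, up to 1062 and 728, while several regions inside listed genes have scores under 60 in both replicates or in replicate 1.

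Hyalectan-cleaving Adamts genes, whose enzymes cut versican, aggrecan and their relatives, had a region at 5 of 7 (38.1% of all genes). Adamts8 was counted only through regions that Adamts15 also had. Adamts20, related to the worm protease gene gon-1 and mutated in belted mice, had 6 shared regions. Replicate 1 had 8 peaks there and replicate 2 had 9. A number of 6 regions was reached by 0.713% of all genes of any length. Adamts20 spans 163.8 kb, and genes of its own length were not counted apart. One of the 6 regions lay inside the gene at chr15:94289930-94290304 (scores 59 and 106 in replicates 1 and 2), 114 kb from the start site. The other 5 stood in a row beyond the far end of the gene, between 18.1 and 78.1 kb from it, and no other protein-coding gene had them within 100 kb. The strongest was chr15:94249826-94250408, with scores of 147 and 126, and 3.17 kb from it lay a region with scores of 36 and 123. The remaining 3 had scores of 60 and 91, 52 and 44, and 53 and 43, all in the lower 50% of both lists. With peaks of at least 50 in both lists, 3 of the 6 regions were left.

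Adamts9, the closest relative of Adamts20 and needed for embryonic growth in mice, had 2 regions, both inside it and both found by each list with no further peak. One was the strongest region inside any member, chr6:92793715-92794162, with scores of 429 and 592 (percentiles 93.8 and above in both lists), 150 kb from the start site. The second, chr6:92921216-92921476, scored 130 and 109 and lay 22.2 kb into the gene.

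Adamts15 and Adamts8 are neighbours on chromosome 9 and shared 2 regions. Adamts15 had 3: chr9:30908022-30908284 inside the gene (scores 170 and 228), a region at 54.4 kb (87 and 78) and one at 92.1 kb (61 and 90). The first also lay 34.4 kb from Adamts8, and the second lay outside genes, 12.99 kb from Adamts8. Apart from these 3 regions neither list had a peak at Adamts15 or Adamts8.

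Adamts4, an aggrecanase, had 2 regions with midpoints 0.226 kb apart, 18.9 and 19.1 kb away, with scores of 178 and 146 and of 259 and 317 (chr1:171281286-171281467 for the stronger). Both overlapped the promoter window of Ppox, an enzyme gene of haem synthesis, and 15 other genes had them in their windows. Adamts1 and Adamts5, which lie next to each other on chromosome 16, had no shared region nearer than 507 and 409 kb. Each list placed a different peak there: replicate 1 one 4.13 kb upstream of Adamts1 (chr16:85807173-85807307, score 89), and replicate 2 one inside Adamts1 (chr16:85793913-85794019, score 83) and a further one 66.1 kb from Adamts5 (score 51).

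Of the procollagen N-propeptidases, which remove the amino-terminal propeptide of fibrillar collagens, 1 of 3 had a region (38.1% of all genes). It was at Adamts3, 42.1 kb beyond the far end of the gene (chr5:89631714-89631871, scores 46 and 86), and replicate 2 alone had a second peak inside the gene (score 59). Adamts2 had a single weak peak of replicate 1 inside it (score 31) and Adamts14 had no peak in either list.

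Of the 9 remaining Adamts proteases, 4 had a region (38.1% of all genes). One was Adamts17, whose human counterpart is mutated in a Weill-Marchesani-like disorder of fibrillin-rich tissue. It had 8 peaks in replicate 1, 7 in replicate 2 and 5 shared regions. A number of 5 regions was reached by 1.43% of all genes of any length. Adamts17 spans 313.5 kb, and genes of its own length were not counted apart. Its strong sites sat at the far end of the gene. One was inside, chr7:67142489-67142867 (scores 291 and 305), 303 kb from the start site, and one 13.96 kb beyond the gene, chr7:67166975-67167281 (scores 371 and 375). Their lower percentiles were 88.9 and 92.2. A weak neighbour 1.96 kb from the second scored 83 and 32. On the other side, regions 8.21 kb from the gene (109 and 207) and 26.8 kb from it inside Cers3 (73 and 70) preceded the start. The 5 peaks found by one list alone, 3 in replicate 1 and 2 in replicate 2, did not coincide with each other.

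Adamts16 had 3 regions. The strongest, chr13:70779216-70779650, lay inside the gene with scores of 128 and 217, and the others lay 89.8 kb away at the promoter window of Ice1 (76 and 90) and 92.8 kb away (104 and 82). Adamts12, whose enzyme cleaves cartilage oligomeric matrix protein, had 2 regions on which the replicates disagreed in rank: chr15:11177835-11177999 inside the gene scored 21 and 109, and chr15:11350778-11351097, 1.77 kb past its far end, scored 20 and 74. In replicate 1 both were at the bottom of the list (percentiles 0.767 and 0.0564), and neither was left with a minimum score of 50. Adamts13, the gene of the protease that cuts von Willebrand factor, had 1 region, 70.3 kb away at the Surf6 promoter window (chr2:26902954-26903118, scores 221 and 217).

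The other 5 had none. Adamts7 and Adamts10 had no peak in either list. Adamts6 had 1 peak of replicate 1 (score 61), Adamts19 had 2 of replicate 1 (53 each) and Adamts18 had 1 in each list inside the gene (47 and 37), at different places.

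Adamts-like genes had a region at 3 of 5 (38.1% of all genes), and Adamtsl1 had most of all members. Its 12 shared regions, reached by 0.0685% of all genes, came from 14 peaks of replicate 1 and 18 of replicate 2, and 11 protein-coding genes had more. The gene spans 914 kb of chromosome 4, and 10 regions lay inside it, or 10.9 per Mb of gene, against 2.83 per Mb over all protein-coding gene bodies. The 39 members together had 4.14 per Mb and the other 38 without Adamtsl1 had 2.196. Among the 71 protein-coding genes of its length or longer, the median was 2 regions inside (range 0 to 18), and 4 of the 71, itself included, had 10 or more.

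Most of the Adamtsl1 regions were weak by the lower percentile. The replicates differed in rank at several, in both directions. Percentiles in replicates 1 and 2 were 2.81 and 65.25 at chr4:85837811-85838032, and 58.0 and 9.93 at chr4:85488886-85489085. One region stood out, chr4:86274041-86274335, with scores of 282 and 539 (lower percentile 88.6). It lay toward the upper end of the gene, in a stretch with chr4:86294773-86295095 (90 and 108), chr4:86323046-86323186 (119 and 75) and chr4:86231256-86231425 (26 and 51). A second stretch held 3 regions close together: chr4:85837221-85837528 (69 and 166), chr4:85837811-85838032 (26 and 127) and chr4:85838553-85838680 (34 and 51), with midpoints 0.528 and 0.711 kb apart. The lists give no summit or signal between them. The last 3 inside the gene were chr4:85710913-85711130 (37 and 146), chr4:85855882-85856043 (66 and 81) and chr4:85949051-85949305 (107 and 131). With scores of at least 50 in both lists 6 of the 12 regions in the window were left. The other 2 lay 24.9 kb below the gene (102 and 47) and 92.4 kb above it inside Saxo1 (32 and 60). Replicate 2 had 6 further peaks inside Adamtsl1 with scores between 51 and 75, and replicate 1 had 2 (21 and 53).

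**Figure D3:**
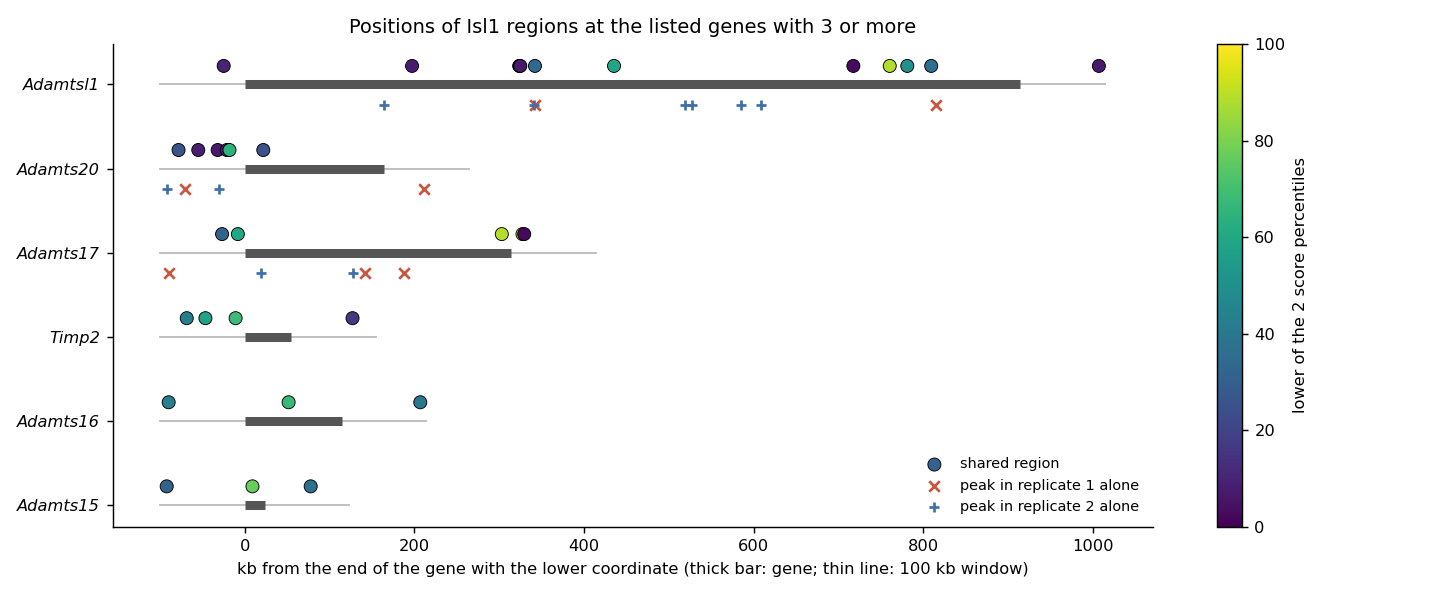
Positions of shared regions (circles, coloured by the lower of the 2 score percentiles) and of peaks in one list alone (crosses for replicate 1, plus signs for replicate 2) at the 6 genes with 3 or more shared regions, in kb from the gene end with the lower coordinate. Adamtsl1 regions are spread over the gene, Adamts20 regions line up on one side of it, and the brightest Adamts17 regions sit at the right end of the gene.

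Adamtsl3 had 2 regions, 40.2 kb away inside Sh3gl3 (chr7:82295112-82295289, scores 102 and 109) and 88.3 kb away inside Efl1 (55 and 49). Replicate 1 had 5 peaks at Adamtsl3, 3 of them in the shared regions, and replicate 2 had 2. The 2 unshared peaks lay 2.75 kb past the start site (score 32) and 82.9 kb away from the gene (score 43). Adamtsl5 had 1 strong region, chr10:80434111-80434324 (scores 544 and 518), 85.2 kb away, which 8 other genes had in their windows. Adamtsl2 had no peak in either list. Adamtsl4, a fibrillin-binding protein gene, had 1 peak of replicate 2 alone, 0.237 kb past its start site (chr3:95687623-95687737, score 51), the nearest of all peaks to a start site of the 24 tabled members.

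Secreted Mmp genes had a region at 2 of 6 (38.1% of all genes). Mmp9, a gelatinase, had 2 strong regions, chr2:164911111-164911504 (scores 597 and 529) at 29.0 kb and chr2:164960643-164960878 (627 and 509) at 4.94 kb. Both were on promoter windows of other genes, Zfp335os (an antisense transcript at Zfp335) and Slc12a5 (a neuronal chloride transporter gene). Mmp19 had the highest scores of all 51 regions, 1062 and 728 for chr10:128804454-128804834, at 3.81 kb. That region lay inside Tmem198b and on its promoter window, and 10 other genes had it in their windows. The lower percentiles of these 3 regions were 96.5, 96.2 and 98.6.

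Mmp2, the other gelatinase, and Mmp3, a stromelysin, had no peak in either list. Mmp11 had 1 peak of replicate 2 (score 33) and Mmp13, a collagenase, 1 of replicate 1 at the Dcun1d5 promoter window, 88.2 kb away (score 87). The nearest shared region of Mmp2 lay 105 kb away, just past the limit of 100 kb, as did that of Adamts6 at 112 kb. The farthest nearest region among members inside the limit was that of Adamtsl5 at 85.2 kb.

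Membrane-bound Mmp genes had a region at 1 of 5 (38.1% of all genes). It was Mmp23, with chr4:155601389-155601798 (scores 288 and 114) 49.0 kb away inside Slc35e2, and it was lost with 50% reciprocal overlap. Mmp14, the membrane protease that activates the precursor of Mmp2, had no peak in either list. Mmp15 (score 51) and Mmp16 (44) had 1 peak of replicate 2 each, and Mmp17 had 1 of replicate 1 at the Sfswap promoter window (115).

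Timp genes, the inhibitors, had a region at 4 of 4 (38.1% of all genes), a group too small to weigh against that share. Of these, 3 sit inside synapsin genes in the gene table, Timp1 in Syn1, Timp4 in Syn2 and Timp3 in Syn3, so a region near them can equally belong to the host gene. Timp1 had 1 region, chrX:20920905-20921118 (scores 497 and 340), 46.3 kb away on the promoter window of Syn1 itself. Timp3, which is held in the matrix and also inhibits Adamts enzymes, had chr10:86398171-86398382 (102 and 206) inside Syn3, 48.8 kb past the end of Timp3, and a second peak in replicate 1 (score 112). Timp4 had chr6:115310859-115311212 (102 and 139), 58.7 kb upstream of its start site, which was lost with 50% reciprocal overlap.

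Timp2 had 4 peaks in each list and 4 shared regions, none inside the gene. The strongest by its lower score was chr11:118290125-118290300 (131 and 217), 10.9 kb past the far end of Timp2 on the promoter window of Usp36. Regions at 46.5 kb (249 and 111), at 68.5 kb inside Cyth1 (76 and 100) and 72.7 kb upstream of the start site (61 and 51) made up the rest.

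**Figure D4:**
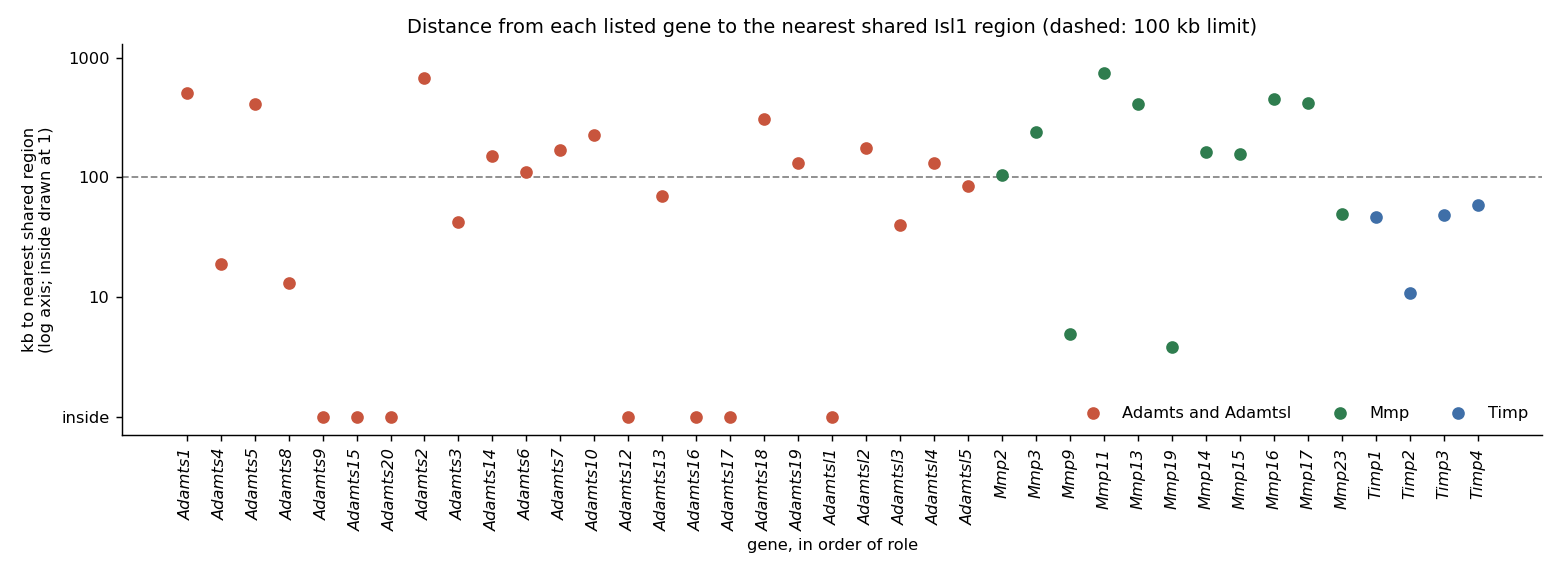
Distance in kb (log axis, regions inside a gene drawn at the bottom) from each of the 39 genes to its nearest shared Isl1 region, with the 100 kb limit dashed. There are 7 genes with a region inside, all of them Adamts or Adamtsl, and the 4 Timp genes lie between 10.9 and 58.7 kb.

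Where the promoter table gave the strand, 16 of 28 pairs of gene and region lay downstream of the gene, 7 upstream and 5 inside. Several of the downstream pairs came from the same gene, as at Adamts20 and Timp2, and 25 of the 53 pairs had no strand. The same split was not made over all genes, so it shows no excess on either side. A region inside the gene was present at 7 of 39 members (17.9%), against 8.32% of all genes. All but 1 of these 7 were over 100 kb long, and of the 13 members of that class 6 had a region inside, against 39.4% of all genes over 100 kb. The exception was Adamts15, of 23.3 kb, the single gene with a region inside among the 13 members of 20 to 100 kb (7.88% of all genes of that class). Among the 13 members under 20 kb 0 had one (2.21% of all genes of that class).

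Peaks of one list alone added members but few strong sites. Replicate 1 peaks lay at 28 of 39 members (44.5% of all genes) and replicate 2 peaks at 27 (45.5%). Of 71 replicate 1 peaks at members, 53 were shared (74.6%, against 78.5% of all its peaks), and of 72 replicate 2 peaks, 52 were (72.2%, against 68.3%). The 18 unshared peaks of replicate 1 scored between 21 and 115 (median 53) and the 20 of replicate 2 between 33 and 83 (median 56). In this way 12 members had a peak in a single list or at different places in each, and 7 (Adamts7, Adamts10, Adamts14, Adamtsl2, Mmp2, Mmp3 and Mmp14) had none in either. The same counts were not made over all genes, nor were scores of unshared peaks taken over the whole lists. These numbers therefore do not show whether the members differ from other genes.

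Other genes of matrix proteolysis were counted by the same rule. Of 60 such genes 23 (38.3%) had a shared region, close to the 38.1% of all genes. Matrix proteins cut by these enzymes had one at 7 of 13, with 5 regions each at Col1a1 and Col1a2, the chains of type I collagen, and 3 each at Col3a1, Fbn2 and Fn1. Regulators and processing proteases had one at 7 of 18, led by Pcsk5 with 4, a proprotein convertase gene. Mmp genes outside the list had one at 4 of 12, Adam genes at 3 of 10 and further matrix genes at 2 of 7.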

How the data were processed

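Trimmomatic 0.35, Bowtie2 2.2.6, MACS2 2.1.0.20150731 and bedtools are named with build mm10 in the submitters' processing notes, without order or settings. Per the labels' protocols, chromatin was fixed in 1% formaldehyde for 20 minutes, sheared to 150 to 400 bp and read as 75 bp single-end reads. The authors deposited 1 peak list per ChIP replicate, with a position and a score per peak; the formula of the score, the calling threshold and the use of the input are details not given in the sources used.

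Peaks of the replicates overlapping by at least 1 bp were joined into shared regions, with the midpoint of the longest overlap as position. A region was counted at every protein-coding gene (RefSeq table, GRCm38.p6, all 39 symbols matched) that held its midpoint inside it or within 100 kb. Length classes were split at 20 and 100 kb. Sequences and start sites came from RefSeq promoter windows of 300 bases (GRCm38.p6); in 1883 overlaps of windows on opposite strands the letters matched as reverse complements, with 0 mismatched. Genes outside that table were Adamts4, Adamts5, Adamts8, Adamts15, Adamts6, Adamts7, Adamts10, Adamts16, Adamts19, Adamtsl1, Mmp2, Mmp9, Mmp19, Mmp16 and Mmp17. Motifs were searched on both strands in the 250 bases before the start. Exon classes and protein stretches, though planned, were not analysed here.

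With 1 group of 2 samples no test between groups was possible; counts are descriptions beside the same count over all genes, with Wilson 95% intervals (scipy 1.17.1, Python 3.11.15). The joining was checked on simulated data. The members, gene lists and rules were chosen with earlier results of these data known. Every member was accounted for, with coordinates for the strongest region (highest lower score) of each member that had one, and for all regions inside the 5 members with most, ties included; regions overlapping promoter windows and the distance of 5 kb from start sites were singled out after their values were seen. Alternatives were 50% reciprocal overlap, a score of at least 50, each list alone, limits of 10 and 50 kb, and the nearest gene.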

Additional observations from a re-analysis of the deposited data

How the results depend on the processing

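The count of 20 members with a shared region was 9 with a limit of 10 kb (14.3% of all genes) and 9 by the nearest gene (14.1%). The 51 distinct regions became 21 and 30 in those settings, and the share inside the member gene 81.0% and 56.7% in place of 33.3%, since by construction the first setting drops regions beyond 10 kb and the second those inside or nearer to another gene. The member count was 17 at 50 kb (26.3% of all genes), 18 with reciprocal overlap (36.3%), 18 with the score minimum (35.1%), 28 without replicate 2 (44.5%) and 27 without replicate 1 (45.5%), with between 37 and 72 regions. At 50 kb the members' share was 43.6% (Wilson 95% interval 29.3 to 59.0%). This interval, like those of the single lists, lay above the value of all genes. Genes were not weighted by length there, and neighbouring members that share a region were treated as independent. The median percentile, 42.7, took values of 50.1 (50% reciprocal overlap), 59.0 (scores of at least 50), 50.1 (10 kb), 57.8 (50 kb) and 32.5 (nearest gene), and between 44.2 and 45 with either replicate left out, where each peak has a single percentile and not the lower of a pair. Of the 39 counts at single genes, 36 stayed within 1.5 times with reciprocal overlap, 34 with the score minimum, 27 without replicate 2, 30 without replicate 1, 32 at 50 kb, 23 at 10 kb and 26 by the nearest gene. No paired analysis was possible because values of the inputs numbered like the ChIP replicates were not used here. Depth is unknown, and 2 replicates limit what a peak seen in one list can show.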
